A study of Homo sapiens with 4 samples.

Results

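The enzymes described here make serine, proline, asparagine and alanine or carry one-carbon units on folate in the mitochondria. The 10 genes were PHGDH, PSAT1, PSPH, SHMT2, MTHFD2, MTHFD1L, ASNS, PYCR1, ALDH18A1 and GPT2, found by symbol among 20323 genes listed by Ensembl identifier. The set was selected on the difference of its counts between the groups in an earlier analysis of these same libraries, so the comparison of the groups is given for it as a description and no test of it is used as support. RNA was sequenced from NK-92, an established human natural killer cell line dependent on interleukin 2, after oligo(dT) selection of mRNA. NK scramble cells carried a lentiviral short hairpin of scrambled sequence, NK shADAR1 cells a lentiviral hairpin against ADAR1, an enzyme that edits adenosine to inosine in double-stranded RNA, and both groups were grown in RPMI medium with serum, β-mercaptoethanol and interleukin 2. Each group had 2 libraries, described as independent biological replicates. The study made 2 hairpins against ADAR1 and names the second of them as the one whose cells were sequenced, so the numbers 1 and 2 of the knockdown libraries are read here as replicates. The time between transduction and RNA collection is not given in the sources used here.

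Serine is made from a glycolytic intermediate in 3 steps, by PHGDH, then PSAT1, then PSPH. In mitochondria, SHMT2 splits serine into glycine and a one-carbon unit bound to tetrahydrofolate, MTHFD2 oxidizes that unit, and MTHFD1L releases it as formate, which the cytosol uses to build purines and thymidylate. ALDH18A1 and PYCR1 stand at the start and the end of proline synthesis from glutamate, ASNS makes asparagine from aspartate, and GPT2 is the mitochondrial alanine transaminase. Genes of this set are known targets of ATF4, a transcription factor made when amino acids run short, and several are also known targets of MYC. In proliferating lymphocytes these enzymes are known to be induced on activation.

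The libraries held 37881704 to 39960491 estimated counts each, and 11810 genes passed the filter on low counts. Levels are given as CPM, counts scaled to a common library size with TMM factors, and pairs of values give replicate 1 first and replicate 2 second. The log2 change of NK shADAR1 over NK scramble is given ± its standard error (SE). For the targeted gene ADAR, the scramble libraries had 655 and 682 CPM against 575 and 482 CPM in the knockdown. Its log2 change was -0.34 ± 0.20 (adjusted p = 1.00, quasi-likelihood test of edgeR). The smallest adjusted p of any gene in that test was 0.9997, so this value is not particular to ADAR. The study reports lower ADAR1 in knockdown NK-92 cells by qRT-PCR and western blot, which were not examined here. All 10 NK markers on a fixed list passed the filter, among them NCAM1, NKG7 and GZMB. Summed over the list, they had 4871 to 5473 CPM in NK scramble and 5178 to 5592 CPM in NK shADAR1 libraries. None of 4 epithelial markers passed, and they summed to at most 0.351 CPM. Of 7 T cell markers, CD3D, CD3E and TRAC passed, with a summed level of 634 to 798 CPM in NK scramble and 714 to 919 CPM in NK shADAR1 libraries, while CD8A was at 0 counts in every library. Of 5 B cell, 5 myeloid and 5 fibroblast markers, 2 each passed, and MS4A1 and FCN1 were at 0. Their summed levels were 22.1 to 24.6, 21.2 to 24.6 and 297 to 376 CPM in NK scramble and 20.1 to 46.2, 27.9 to 29.4 and 273 to 294 CPM in NK shADAR1 libraries, and the fibroblast sum was almost wholly PDGFRB. The part of these markers in the results was not tested. Over 11810 genes that are not independent, the log2 CPM of libraries correlated at r = 0.981 within each group. Between groups it was r = 0.981 to r = 0.989, so replicates were no more alike than libraries of different groups. The highest values were those of same-numbered libraries, r = 0.985 for the replicates numbered 1 and r = 0.989 for those numbered 2. Differently numbered libraries of different groups had r = 0.982 and r = 0.981.

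Of the enzyme genes, 9 passed the filter and 1, PHGDH, did not. PHGDH encodes the dehydrogenase of the first step of serine synthesis. It had 2 and 3 counts in NK scramble replicates 1 and 2 and 0 counts in both NK shADAR1 libraries. A count of 0 allows up to 3 counts, or 0.0763 and 0.0803 CPM in NK shADAR1 replicates 1 and 2, so all 4 libraries lay at or under this floor and no fold change is given. These limits cover counting error only.

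The other enzymes of serine synthesis were well above that floor, in both groups. PSAT1, the transaminase of the second step, had 184 and 120 CPM in the scramble libraries against 78.4 and 108 CPM in the knockdown. Its 2 NK shADAR1 libraries lay below both NK scramble libraries, although NK shADAR1 replicate 2 and NK scramble replicate 2 differed by less than either pair of replicates did. The log2 change was -0.70 ± 0.25 SE and -0.36 without NK scramble replicate 1. PSPH, the phosphatase of the last step, had 15.9 and 14.1 CPM in the scramble libraries against 9.66 and 14.6 CPM in the knockdown. Here the groups overlapped, and NK shADAR1 replicate 1 alone was low. The log2 change of PSPH was -0.31 ± 0.25 SE, and it was -0.04 without NK shADAR1 replicate 1 and -0.64 without NK shADAR1 replicate 2.

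Of the mitochondrial folate enzymes, SHMT2 and MTHFD2 had the highest FPKM (counts per transcript length and depth) of the set in every library, and MTHFD1L a lower one. SHMT2 had 436 and 411 CPM in the scramble libraries against 381 and 400 CPM in the knockdown, its log2 change being -0.12 ± 0.19 SE, which was smaller than its standard error although the groups did not overlap. MTHFD2, the bifunctional dehydrogenase and cyclohydrolase, had 364 and 303 CPM in the scramble libraries against 230 and 251 CPM in the knockdown. Both knockdown libraries were below both scramble libraries, and the knockdown libraries were the closer pair. Its log2 change was -0.47 ± 0.20 SE, the steadiest of the larger ones, at -0.34 to -0.60 when each library was left out in turn. MTHFD1L, the formyltetrahydrofolate synthetase of mitochondria, had 164 and 129 CPM in the scramble libraries against 108 and 120 CPM in the knockdown. The groups did not overlap, but NK scramble replicate 2 lay nearer to the knockdown libraries than to its own replicate. The log2 change was -0.37 ± 0.20 SE, and -0.19 without NK scramble replicate 1. MTHFD2 has 7 named pseudogenes in GENCODE release 29 and had a count that was not whole in 3 of 4 libraries, so part of its reads may be shared with them. PSAT1 and ASNS have 4 such pseudogenes each and PSPH has 1. The genes lie far apart in GRCh38, with PSPH (chr7:56011051-56051604) and ASNS (chr7:97852118-97872542) the only pair on 1 chromosome. Exons of SHMT2, MTHFD2 and PYCR1 overlap those of other coding genes in that annotation, so some of their reads may be ambiguous. The counts of SHMT2 and PYCR1 were whole in every library, and the share of such reads was not tested.

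The proline enzymes were unlike each other. PYCR1, pyrroline-5-carboxylate reductase, had 196 and 137 CPM in the scramble libraries against 118 and 129 CPM in the knockdown. Again NK scramble replicate 1 stood above the 3 other libraries, which were close together. The log2 change was -0.42 ± 0.22 SE, -0.14 without NK scramble replicate 1 and -0.66 without NK scramble replicate 2. ALDH18A1, which makes the pyrroline-5-carboxylate that PYCR1 reduces, had 149 and 186 CPM in the scramble libraries against 138 and 204 CPM in the knockdown. Its replicates differed more than its groups did, with replicate 2 the higher in both groups. The log2 change was 0.030 ± 0.23 SE, and its sign turned when NK scramble replicate 1 or NK shADAR1 replicate 2 was left out, to -0.12 and -0.28.

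GPT2 and ASNS pass amino groups to alanine and asparagine. GPT2 had 72.0 and 38.3 CPM in the scramble libraries against 26.5 and 35.8 CPM in the knockdown. It had the largest log2 change of the 9, at -0.83 ± 0.29 SE, a level 1.77-fold higher in NK scramble cells. The difference between the NK scramble libraries themselves was larger, at 0.91 in log2 CPM, and without NK scramble replicate 1 the log2 change was -0.30. In FPKM, GPT2 was at 18.2 and 11.1 in the scramble libraries against 7.03 and 13.9 in the knockdown. On that scale the groups overlapped. The length implied by its counts and FPKM was 2491 bases in NK shADAR1 replicate 2 and 3387 to 3997 bases in the other libraries. ASNS had 202 and 206 counts (5.06 and 5.24 CPM) in the scramble libraries against 248 and 121 counts (6.30 and 3.24 CPM) in the knockdown. The NK scramble libraries lay between the NK shADAR1 libraries. The log2 change of ASNS was -0.11 ± 0.36 SE, and it turned from -0.67 without NK shADAR1 replicate 1 to 0.29 without NK shADAR1 replicate 2.

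**Figure D1:**
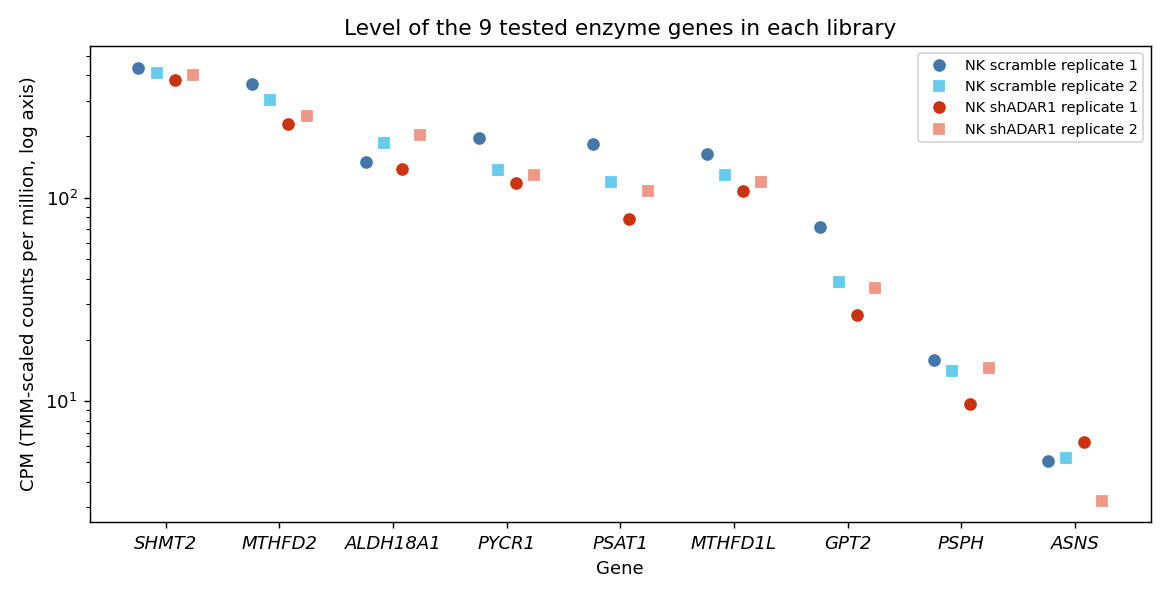
Level of the 9 tested enzyme genes in CPM on a log axis, with 1 point per library and genes ordered by their mean in NK scramble cells. NK scramble replicate 1 was the highest library for 7 of the 9 genes, and NK shADAR1 replicate 1 the lowest for 8.

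Across the 9 tested genes, 8 had a log2 change below 0, where 50% of all 11810 genes did, and 6 had both NK shADAR1 libraries below both NK scramble libraries, where 12.6% of all genes did. Both NK shADAR1 libraries lay above in none of them, against 13.3% of all genes. Since this contrast was known when the genes were chosen, nothing is read from these counts. The median log2 change was -0.37, beside 2.8e-05 over all tested genes. By the edgeR quasi-likelihood test (Benjamini-Hochberg adjusted), 0 of the 9 had an adjusted p under 0.05 and a change of 1.5-fold or more, as for all genes (0%). At an unadjusted p under 0.05, 3 of the 9 passed, PSAT1, MTHFD2 and GPT2, all lower, where 0.779% of all genes passed in that direction and 1.7% in the other. DESeq2 also gave 0 genes after adjustment, with 289 at an unadjusted p under 0.05 against 293 in edgeR.

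**Figure D2:**
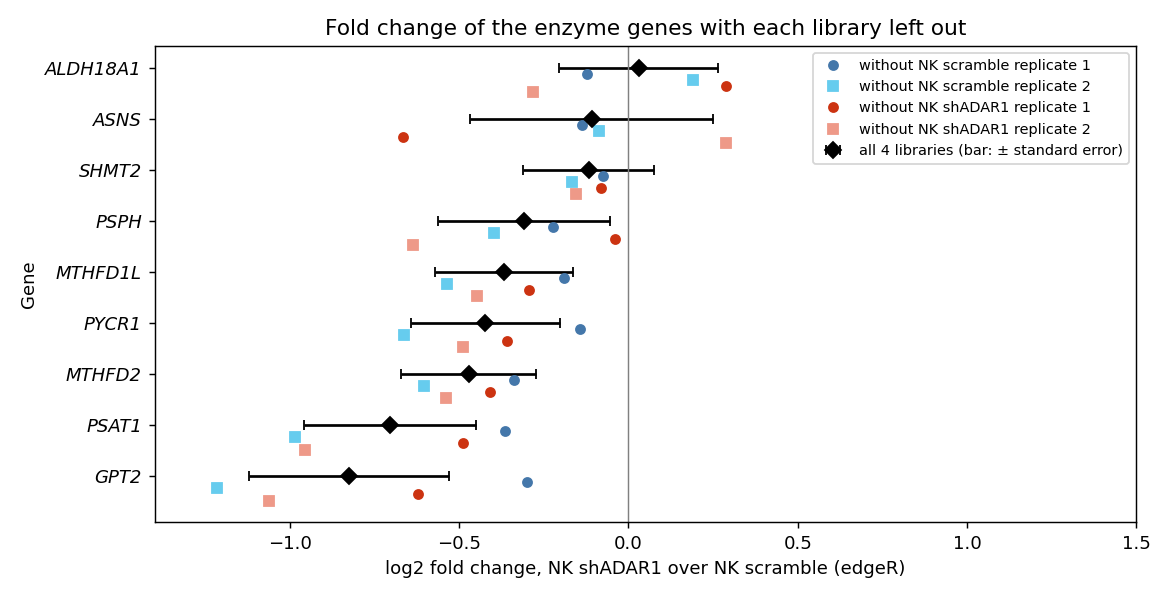
Log2 change of NK shADAR1 over NK scramble for each tested gene, with all 4 libraries (black, bar ± standard error) and with each library left out in turn (coloured). The values without NK scramble replicate 1 lie nearest to 0 for GPT2, PSAT1, PYCR1, MTHFD2, MTHFD1L and SHMT2, and those of ASNS and ALDH18A1 fall on both sides of 0.

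A large part of the spread lay inside the groups. NK scramble replicate 1 had the highest level of 7 of the 9 genes, where it was the highest library for 26.5% of all genes, and NK shADAR1 replicate 1 had the lowest level of 8, against 29.1% of all genes. The set was selected on the difference between the groups, which favours a scramble library as the highest and a knockdown library as the lowest. The shares of all genes are therefore no like background for these counts, and nothing is read from them. For 7 genes, replicate 1 was above replicate 2 in NK scramble cells and below it in NK shADAR1 cells, a combination that 19.7% of all genes had. The median difference of replicate 1 from replicate 2 in log2 CPM was 0.26 in NK scramble cells and -0.15 in NK shADAR1 cells. Over all tested genes the medians were -0.0024 and 0.0057. With 1 library against 1, these differences have no test. GPT2 had the widest difference between the NK scramble libraries, above that of 96.6% of all genes, followed by PSAT1 (0.62, above 92.2%) and PYCR1 (0.52, above 89.0%). Between the NK shADAR1 libraries PSPH and ALDH18A1 were the most negative, at -0.59 and -0.57, and ASNS went the other way at 0.95, above 95.6% of genes.

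**Figure D3:**
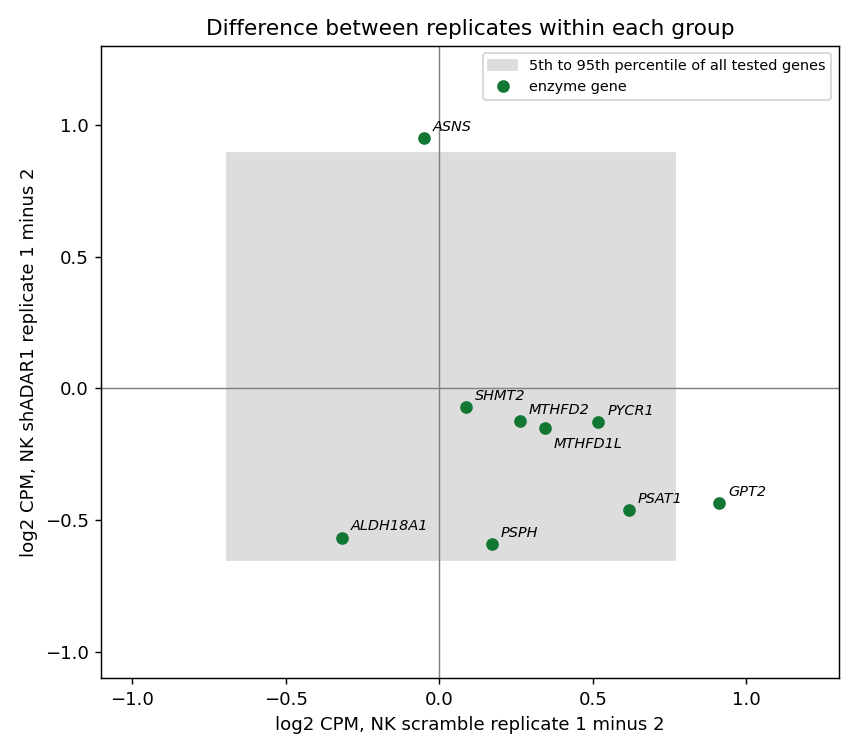
Difference of replicate 1 from replicate 2 in log2 CPM, NK scramble on the horizontal and NK shADAR1 on the vertical axis, with 1 point per tested enzyme gene. The grey box spans the 5th to the 95th percentile of all tested genes on each axis, and 7 of the 9 genes lie to the right of 0 and below 0.

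Taken library by library, the median of the 9 genes in NK shADAR1 replicate 1 was -0.66 in log2 CPM against NK scramble replicate 1 and -0.40 against NK scramble replicate 2. For NK shADAR1 replicate 2 these medians were -0.54 and -0.096. The difference between NK shADAR1 replicate 2 and NK scramble replicate 2 was thus smaller than that between the NK scramble libraries, -0.26 for replicate 2 against replicate 1. When NK scramble replicate 1 was left out of the edgeR fit, the median log2 change of the 9 genes was -0.19, and all 9 were below 0. Without NK scramble replicate 2 it was -0.54. Without NK shADAR1 replicate 1 or 2 it was -0.36 and -0.49. A fit that leaves 1 library in a group assumes that this library varies like those of the other group.

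Per length, the enzymes covered a wide range. FPKM, which divides counts by transcript length and by sequenced fragments, allows a comparison between genes. SHMT2 was highest at 199 to 220 FPKM over the 4 libraries, above 96.9% of tested genes by its mean, and MTHFD2 had 134 to 205 FPKM. Both lay above PYCR1 at 85.2 to 136 FPKM in each library, and their own ranges overlapped each other. PSAT1 (38.3 to 86.6 FPKM), ALDH18A1 (42.8 to 59.1) and MTHFD1L (33.5 to 51.1) followed with ranges that overlapped. GPT2 (7.03 to 18.2 FPKM) and PSPH (6.92 to 10.9) overlapped too. ASNS at 2.14 to 3.54 FPKM was below every library of PSPH, and PHGDH had at most 0.082 FPKM. The enzymes of serine synthesis were thus unequal in level, with a mean of 57.2 FPKM for PSAT1, 9.17 for PSPH and 0.027 for PHGDH.

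Mitochondrial enzymes were compared with isozymes within each library. SHMT2 was 9.98 times as high in FPKM as SHMT1 on average and 11.4 times at most. SHMT1, the cytosolic serine hydroxymethyltransferase, had 19.4 to 22.1 FPKM. MTHFD2 was 83.9 to 219 times as high as MTHFD2L, its mitochondrial isozyme, which had only 0.726 to 1.60 FPKM. MTHFD1L was lower than MTHFD1, the cytosolic enzyme that joins 3 activities in 1 protein, with a ratio of 0.289 to 0.498. NK scramble replicate 1 gave the highest of those ratios and NK shADAR1 replicate 1 the lowest. PYCR1 was 26.8 to 44.9 times as high as PYCR3, the cytosolic reductase, which had 2.31 to 3.18 FPKM. GPT, the cytosolic alanine transaminase, had 2, 1, 4 and 0 counts, so that GPT2 was the only alanine transaminase above a handful of counts in these libraries. The log2 changes of SHMT1, MTHFD1, MTHFD2L and PYCR3 in edgeR were 0.020, 0.062, 0.25 and -0.14, each smaller than its standard error (adjusted p = 1.00 for each).

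**Figure D4:**
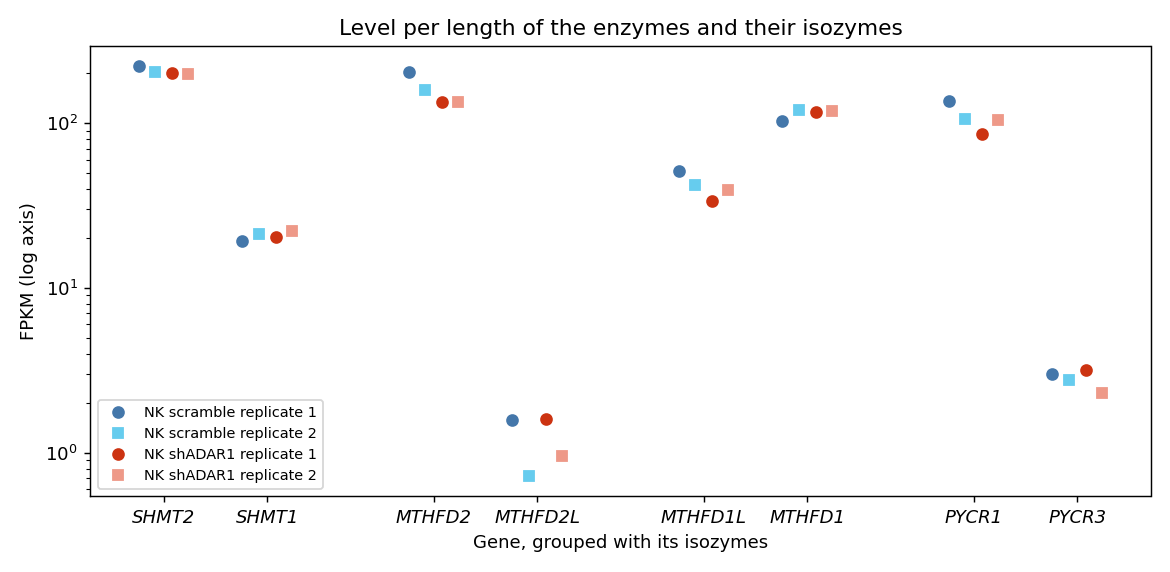
FPKM on a log axis of SHMT2, MTHFD2, MTHFD1L and PYCR1, each beside an isozyme, with 1 point per library. SHMT2 lies near 206 FPKM against about 20 for SHMT1, MTHFD2L is the lowest gene at 0.726 to 1.60, and MTHFD1L lies below MTHFD1 in every library.

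Promoters were searched for TGATGNAA, the core of the C/EBP-ATF response element that ATF4 and its partners are known to bind. They were also searched for CACGTG, the E-box bound by MYC with its partner. RefSeq windows from 250 bases before to 50 bases after a transcription start (GRCh38.p14) were found for PHGDH, PSAT1, MTHFD2, MTHFD1L, ASNS and ALDH18A1. PSPH, SHMT2, PYCR1 and GPT2 had no entry. On either strand, TGATGNAA occurred in windows of 2 of these 6 genes, ASNS and MTHFD1L, and in windows of 4.46% of all 27305 genes (3.62% of 35116 windows). CACGTG occurred in windows of MTHFD1L and ALDH18A1 and of 8.77% of all genes (7.26% of windows). The sites are shown with the gene strand read 5′ to 3′ and the match in capitals. Those of ASNS (chr7:97872458-97872487, minus strand) and MTHFD1L (chr6:150866346-150866375 and chr6:150866320-150866349, plus strand) start 68, 129 and 154 bases before a listed start, and that of ALDH18A1 (chr10:95656830-95656859, minus strand) 136 bases before it. MTHFD1L has 4 listed starts and ASNS has 2. A window of SLC1A5, a transporter described below (chr19:46784893-46784922, minus strand), holds the same 8 letters as MTHFD1L, TGATGCAA. It is shown as 1 example of the 14 genes with these letters among 115 matched genes of the related lists, of which 20 hold TGATGNAA. Over all 27305 genes, 1.08% had TGATGCAA in a window. Whether the lists differ from all genes in these shares was not tested. Another window of SLC1A5 holds CACGTG.
ASNS, TGATGNAA: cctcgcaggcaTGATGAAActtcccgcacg
MTHFD1L, TGATGNAA: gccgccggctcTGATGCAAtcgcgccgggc
MTHFD1L, CACGTG: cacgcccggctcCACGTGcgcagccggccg
ALDH18A1, CACGTG: gggctggcccgcCACGTGgagcgctggctt
SLC1A5, TGATGNAA: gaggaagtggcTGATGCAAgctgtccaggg
A match is a description of the letters and does not show binding. Of the 2 genes with TGATGNAA, MTHFD1L was highest in NK scramble replicate 1. ASNS, with only 121 to 248 counts per library, was highest in NK shADAR1 replicate 1. Whether these motifs go with the levels was not tested.

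The genes whose levels over the 4 libraries ran closest to the mean profile of the 9 enzymes were sought among 8483 other genes with a mean of at least 10 CPM, by the root mean square difference of centred log2 CPM. The mean profile was 0.33 and 0.043 in the scramble libraries against -0.27 and -0.096 in the knockdown. The 5 nearest genes were REXO4, AIMP2, ZNF622, SLC7A1 and ATF4, at distances of 0.012, 0.016, 0.017, 0.026 and 0.027. SLC7A1 carries arginine and lysine into the cell, and AIMP2 is a scaffold of the multi-tRNA synthetase complex. ATF4 itself had 546 and 445 CPM in the scramble libraries against 368 and 424 CPM in the knockdown. PSAT1, SHMT2, MTHFD2, MTHFD1L, PYCR1 and GPT2 had the same order of libraries in CPM, while PSPH, ASNS and ALDH18A1 did not. ATF4 was picked here for its nearness to the mean of these enzymes, which were themselves selected on the group difference. The shared order follows in part from these choices, and nothing is read from it. The log2 change of ATF4 was -0.32 ± 0.21 SE (adjusted p = 1.00 in edgeR). With 4 libraries many genes share a profile, so the list is a description.

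The neighbouring reactions were followed with lists of other genes, chosen for their role but with earlier results of these data known. Their values are therefore a description and are not used as support for the enzymes. In the list for cytosolic folate enzymes and folate uptake, 7 of 13 tested genes were lower and 6 higher, with a median log2 change of -0.012, and in the list for mitochondrial folate and glycine cleavage 6 were lower and 6 higher (median 0.039). TYMS, the thymidylate synthase that consumes a folate one-carbon unit, had 184 to 201 FPKM and a log2 change at -0.052 ± 0.19 SE. SFXN1, the mitochondrial serine carrier, had 125 to 157 FPKM, and SHMT2 was higher than it in every library. ALDH1L2, a mitochondrial formyltetrahydrofolate dehydrogenase, did not pass the filter, with 4 to 10 counts per library. Of the genes around proline and glutamate, all 6 tested were below 0 (median -0.13), led in level by glutamine synthetase, GLUL, at 157 to 240 FPKM. OAT, which links ornithine to proline synthesis, had 4 and 2 counts in NK scramble and 0 in both NK shADAR1 libraries. The medians were -0.088 for transaminases (4 of 6 lower, GOT2 the highest in mean FPKM), 0.024 for aspartate and asparagine use (2 of 6 lower, ADSL the highest), -0.12 for serine use (6 of 10 lower, PTDSS1 the highest) and -0.028 for the methionine cycle (5 of 8 lower, AHCY the highest). CBS, which joins serine to homocysteine, had no more than 0.5 counts in any library. In these 7 lists 0 genes passed at an unadjusted p under 0.05 in edgeR, where 2.48% of all 11810 genes did, and 0 after adjustment.

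The 3 other lists held regulators, amino acid transporters and cytosolic aminoacyl-tRNA synthetases. Over all 10 lists, 114 of 144 genes were tested, 77 were lower and 37 higher, where 50% of all 11810 genes were lower. The median log2 change was -0.089. At an unadjusted p under 0.05, 6 passed, all lower, where 0.779% of all genes passed in that direction and 1.7% in the other. After adjustment 0 passed (adjusted p = 1.00 for each in edgeR's quasi-likelihood test). Without NK scramble replicate 1 only 2 genes passed at the unadjusted threshold and without NK scramble replicate 2 there were 14. Among regulators, 11 of 17 were lower with a median of -0.35. SESN2, a leucine sensor of the mTORC1 pathway, had 82.2 and 49.7 CPM in the scramble libraries against 32.9 and 36.0 CPM in the knockdown (log2 change -0.94 ± 0.25 SE, and -0.53 without NK scramble replicate 1). ATF3, a stress-induced transcription factor, had 13.5 and 9.82 CPM in the scramble libraries against 2.64 and 7.52 CPM in the knockdown (log2 change -1.20 ± 0.42 SE, -0.63 without NK shADAR1 replicate 1 and -2.14 without NK shADAR1 replicate 2). CEBPB, a partner of ATF4, had 50.9 and 18.0 CPM against 22.4 and 10.7 CPM, so its groups overlapped. Its log2 change was -1.06 ± 0.45 SE, but -0.13 without NK scramble replicate 1, -1.63 without NK scramble replicate 2, and -1.69 and -0.62 without NK shADAR1 replicates 1 and 2. TRIB3, a target of ATF4 that represses it, had 60.3 CPM in NK scramble replicate 1 and 29.2 to 29.5 CPM in the other 3 libraries. DDIT3, which encodes the stress factor CHOP, and MYC had log2 changes of -0.35 ± 0.24 and -0.48 ± 0.23 SE, and neither passed. EIF2AK4, the kinase GCN2 that senses uncharged tRNA, had only 0.153 to 0.426 CPM.

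Among amino acid transporters 14 of 16 tested genes were lower, with a median of -0.29. SLC1A5, which imports glutamine and serine, had 525 and 344 CPM in the scramble libraries against 281 and 289 CPM in the knockdown. The NK shADAR1 libraries were alike and both low, and NK scramble replicate 1 was high, with a log2 change at -0.61 ± 0.23 SE, which was -0.27 without NK scramble replicate 1. SLC3A2, the heavy chain of several exchangers, had 225 and 165 CPM against 122 and 141 CPM, its log2 change being -0.57 ± 0.22 SE, and -0.33 without that library. Of the 20 synthetases, 16 were lower with a median of -0.12. WARS1, the tryptophanyl-tRNA synthetase, which is also induced by interferon, had 429 and 301 CPM in the scramble libraries against 198 and 212 CPM in the knockdown, its log2 change being -0.83 ± 0.22 SE, and -0.55 without NK scramble replicate 1. MARS1, the synthetase highest in mean FPKM though not in every library, had a log2 change equal to -0.29 ± 0.20 SE. Whether these lists differed from the enzymes was not tested.

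**Figure D5:**
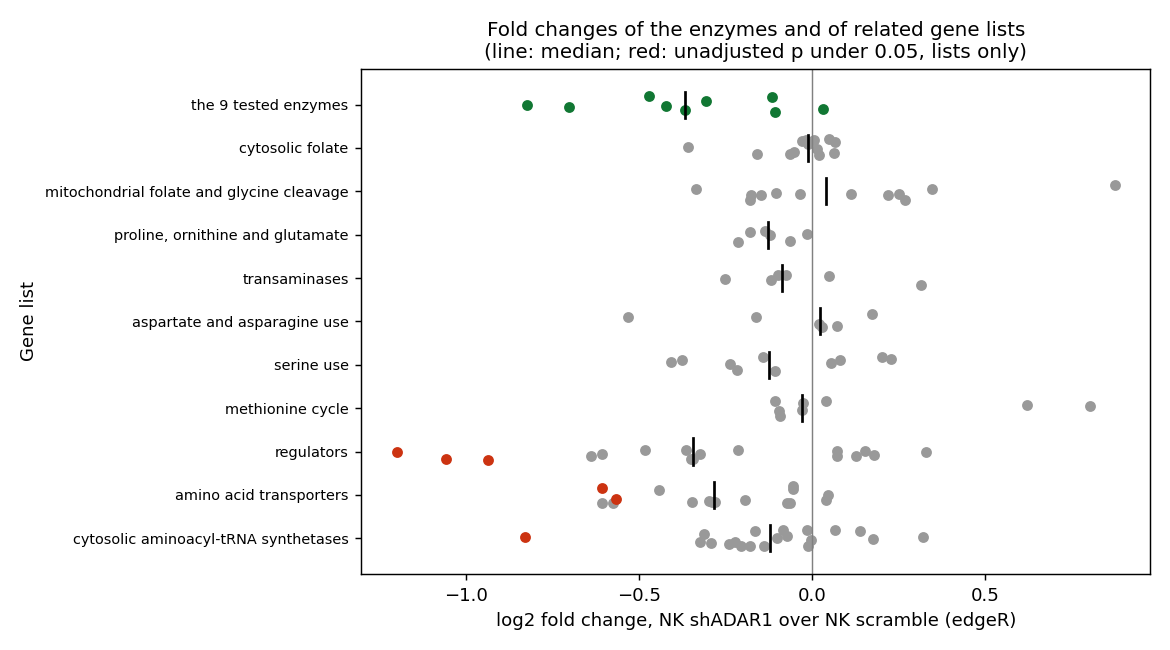
Log2 change of NK shADAR1 over NK scramble for the 9 tested enzymes (green) and for the tested genes of 10 related lists, with 1 point per gene, a line at each median and the 6 list genes with an unadjusted p under 0.05 in red. The enzymes have a median of -0.37, regulators and transporters -0.35 and -0.29, and the lists for folate and methionine metabolism lie around 0.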

How the data were processed

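Poly(A)-selected RNA of 4 NK-92 libraries, 2 per group, was read on a NovaSeq instrument. Per gene, the deposited table holds estimated counts of each library, not scaled for depth and not all whole, and FPKM values made by the authors. The submitters' processing notes name fastp 0.18.0. The aligner, counting program, genome build and annotation are not given in the sources used here. All columns of the table were used.

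Counts were rounded, filtered with filterByExpr (minimum count 10) and, after TMM scaling, tested with edgeR 4.0.16 (quasi-likelihood, no covariates, R 4.3.3) with Benjamini-Hochberg adjustment over 11810 genes. A call needed a 1.5-fold change at least and an adjusted p below 0.05. Standard errors are the log2 fold change divided by the square root of F. Log2 CPM used a prior count of 2. The scripts were tested on simulated counts. An exact permutation test was not used, since 2 libraries against 2 are too few for it. DESeq2 1.42.0 and limma 3.58.1 (log2 of FPKM plus a pseudocount of 1) were alternatives, beside other scalings and filters, each library left out and transcript length and GC content. The depth of 37881704 to 39960491 counts per library leaves counting error largest for the genes with few counts, such as ASNS and PHGDH. P-values measure the spread between libraries of the same group, of which counting error is only a part.

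The members, lists and rules for naming genes were chosen with earlier results of these data known. Named are all members, their isozymes (1 is not reported here), list genes with an unadjusted p under 0.05 and the highest of each list in FPKM, known regulators, the target and the 5 genes nearest in profile. ALDH1L2, OAT, CBS and EIF2AK4 were named after their values were seen. Symbols matched 20301 of 20323 identifiers. Gene models are GENCODE release 29 and promoters RefSeq (GRCh38.p14).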

Additional observations from a re-analysis of the deposited data

How the results depend on the processing

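The edgeR count of 0 differentially expressed genes (293 genes at an unadjusted p under 0.05) was also 0 under DESeq2 (289), RLE and upper quartile scaling, both other filters, limma on FPKM and no fold threshold. It was 213 with unadjusted p-values, 13 with the replicate number as a block and 1 to 47 with 1 library left out (47 without NK scramble replicate 1 and 16 without NK shADAR1 replicate 1). After adjustment, none of the enzymes was called in any of these settings. At an unadjusted p under 0.05 there were 3 enzymes, 4 with the block, 1 in limma and 0 without NK scramble replicate 1 or NK shADAR1 replicate 1. The median log2 fold change of the 9 enzymes ranged from -0.535 without NK scramble replicate 2 to -0.189 without NK scramble replicate 1, and in every setting but the latter it moved by less than its spread between replicates of 0.178. The count of related genes at an unadjusted p under 0.05 was 6, with 11 under no filter, 12 under the replicate block and 2 to 14 with 1 library left out. Of 108 values of single enzymes under an alternative, 104 moved by less than the spread between replicates. Leaving out 1 of 2 replicates can hardly move a value by more than this spread, so the count does not show steady values. ASNS, for example, was at -0.67 without NK shADAR1 replicate 1 and at 0.29 without NK shADAR1 replicate 2. The same limit holds for the median of the enzymes. Deviations of same-numbered libraries correlated at 0.308 across 11810 genes. With 2 pairs this does not show that the numbers pair the libraries. Whether same-numbered libraries were handled together was not tested, and the main fit takes no account of the number. With the number as a block, edgeR gave 681 genes at an unadjusted p under 0.05, against 293 without it. The stricter motif TGATGCAA occurred in 0.866% of windows, against 3.62% for TGATGNAA. Other scalings for the replicate differences were chosen after seeing the data and moved neither by more than that spread. A pseudocount of 1 FPKM gave a mean ratio of 9.57 in place of 9.98 for SHMT2 over SHMT1 and of 28.7 in place of 38.7 for PYCR1 over PYCR3, whose level is near the pseudocount. How far depth limits the low genes was not tested.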

Other observations

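The length implied by the ratio of deposited counts to deposited FPKM varied between libraries for some of the enzymes. For GPT2 it was 3997 and 3909 bases in replicate 1 of NK scramble and of NK shADAR1 and 3387 and 2491 bases in replicate 2. For PYCR1 it was 1457 and 1443 bases in the replicates numbered 1 and 1264 and 1208 bases in those numbered 2, and for MTHFD1L 3246 and 3337 against 3035 and 2951 bases. For ALDH18A1 it was 3348 to 3349 bases in all 4 libraries. The files do not separate the transcripts of a gene.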
